A study of Cricetulus griseus with 5 samples.

Results

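The genes described here encode the proteasome and the factors that activate or assemble it, read by 49 probes for 47 genes out of 20868 probes and 16504 named genes on the array. Members were taken by name, as every probe with a single gene symbol that starts with Psm, then a letter from a to g, then a digit. By that letter they fall into 8 core alpha probes (Psma), 10 core beta probes (Psmb), 8 ATPase probes (Psmc, 7 genes), 14 non-ATPase probes (Psmd) and 9 activator or assembly probes (Psme, Psmf and Psmg, 8 genes). The name rule also takes in Psmc3ip, a meiotic recombination factor, and Psme3ip1, a protein that binds the activator encoded by Psme3, and neither is a subunit. Psmb6, Psme2 and Psmg4 had no probe with a single symbol and are not analysed here.

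The samples are 5 two-colour arrays with RNA of the A23 line in both channels, which form 1 group with no other genotype, treatment or time. A23 is a Chinese hamster fibroblast line that lacks thymidine kinase and serves as the recipient cell in radiation hybrid panels, and it is a single line with no second line beside it. Each array had Cy5-labelled A23 RNA in channel 1 and Cy3-labelled A23 RNA in channel 2, so no array has the dyes swapped. The series served to judge how well such arrays detect loci that act in cis on expression. With A23 RNA in both channels, 0 is the ratio for equal expression. Each value below is a departure from it, in the deposited log units, on an array of mouse gene probes. The dye order was the same on every array, so a steady sign of a probe cannot be told apart from a dye effect. Dye effects on single probes were not tested.

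The proteasome is the barrel-shaped protease that degrades proteins tagged with ubiquitin in the cytosol and nucleus. Its core particle stacks rings of alpha subunits, which form the gate, around rings of beta subunits, some of which carry the proteolytic sites. The regulatory particle caps the core with a base, which holds the ATPases that unfold substrates, and a lid, which removes ubiquitin. In growing fibroblasts these subunits are housekeeping genes, while a few relatives are induced by interferon or restricted to thymus or testis.

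Ratios of the proteasome genes were small, and no member passed the threshold for a ratio other than 0. When each mean was tested in limma and adjusted by Benjamini-Hochberg over all probes, 0 of 49 members had an adjusted p under 0.05, where 3.42% of all probes did, and the lowest adjusted p among members was 0.0578. At an unadjusted p of 0.05 the count was 13 of 49 (26.5%), 9 positive and 4 negative, beside 27.3% of all probes. If no probe departed steadily from 0, a share of about 0.05 of all probes would reach that level. Counts of members are therefore read only beside the share over all probes, and the cause of its height was not tested. At the level of genes 0 of 47 passed in limma, beside 2.45% of all genes, and 12 had an unadjusted p under 0.05, beside 27.7%. With array weights in the same fit 5 members passed (Psmb2, Psmb3, Psmb5, Psmd3 and Psmd6), where 7.58% of all probes did, and 4 genes (all of these but Psmb3), where 7.22% of all genes did, and with scaled arrays Psmb5 alone passed, where 4.58% did. The median of the member means was 0.00967, beside 0.00187 over all probes, and moved to 0.0161 without replicate 1, 0.0057 without replicate 2 and 0.00469 without replicate 4. Means were positive for 29 members, beside 51.3% of all probes, negative for 19, beside 46.8%, and exactly 0 for 1. The same sign on all 5 arrays was seen for 16 members (32.7%), beside 26.4% of all probes. Of these, 11 were positive, beside 13% of all probes, and 5 negative, beside 13.4%.

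**Figure D1:**
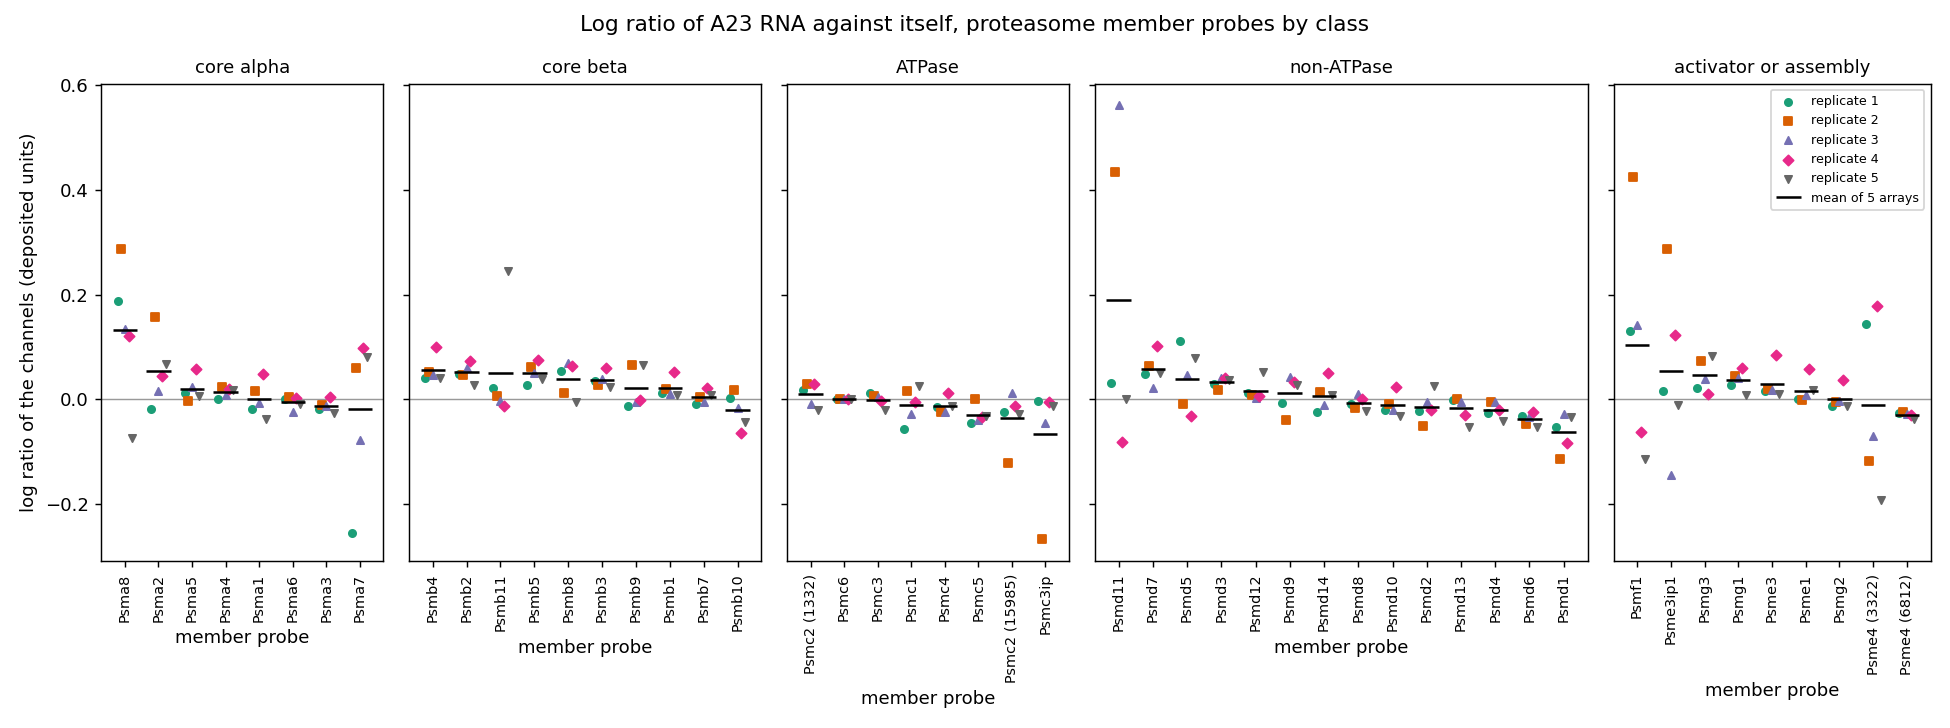
Log ratio (deposited units, vertical axis) of each of the 49 member probes (horizontal axis, ordered by mean within a class) on the 5 arrays, with a bar at the mean; numbers in brackets are features of genes with 2 probes. Most means lie close to 0, and Psmd11, Psma8 and Psmf1 have the highest means, at 0.189, 0.132 and 0.104 and with arrays on both sides of 0 for each.

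The alpha subunits, which form the outer rings of the core, had ratios of both signs. Of 8 probes, 5 had a positive and 3 a negative mean, the median was 0.00717, and none had the same sign on all 5 arrays. Psma1, Psma3, Psma4, Psma5 and Psma6 had means between -0.0123 and 0.0191 with SDs from 0.00969 to 0.0331. Psma2 averaged 0.0536 ± 0.066 (SD, n = 5), and 0.0278 without replicate 2. The mean of Psma1, at 0.000209, had no settled sign, since it was -0.00252 after scaling of the arrays and -0.00276 after quantile normalization.

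The widest spread in this class belonged to a pair of related genes. Psma7 gave -0.255, 0.0596, -0.0777, 0.0979 and 0.0817 on replicates 1 to 5, a mean of -0.0187 ± 0.149 (SD, n = 5; limma adjusted p = 0.862). Replicate 1 lay far below the others, and without it the mean was 0.0404. Psma8, the testis relative of Psma7, gave 0.188, 0.288, 0.135, 0.122 and -0.0734, a mean of 0.132 ± 0.132 (SD, n = 5; limma adjusted p = 0.194). It was positive on 4 of the 5 arrays and negative on replicate 5. The part of probe brightness in these spreads was not tested, since the deposited values hold no intensity.

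The beta subunits had the most even sign of the 5 classes. Of 10 probes 9 had a positive mean, beside 51.3% of all probes, and the median was 0.0375. In limma 5 had an unadjusted p under 0.05, all positive, beside 13.4% of all probes with a positive ratio at that level. Positive ratios on all 5 arrays were found for 5 of the 10 probes, namely Psmb1, Psmb2, Psmb3, Psmb4 and Psmb5, beside 13% of all probes. With any of the arrays left out the number was 5 or 6, beside 14.6% to 17.8% of all probes over the remaining 4 arrays. Read as log10, which is the likely but unstated base, the largest mean of the class was 1.14-fold, and read as log2 it was 1.04-fold.

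Among the constitutive beta subunits, Psmb5 carries the chymotrypsin-like site and Psmb7 the trypsin-like site, while Psmb1, Psmb2, Psmb3 and Psmb4 have no site of their own. Psmb4 gave 0.0404, 0.052, 0.0458, 0.0998 and 0.0405 on replicates 1 to 5, a mean of 0.0557 ± 0.0251 (SD, n = 5; limma adjusted p = 0.0711). Psmb5 gave 0.028, 0.0608, 0.0502, 0.0749 and 0.0389, a mean of 0.0506 ± 0.0183 (SD, n = 5; limma adjusted p = 0.0616). Every array of both genes was above 0, and replicate 4 was the highest for each. Psmb2 gave 0.0492, 0.0461, 0.0603, 0.0739 and 0.0275, a mean of 0.0514 ± 0.0173 (SD, n = 5), with the lowest adjusted p of all members in limma (0.0578). Psmb3 averaged 0.0362 ± 0.0142 and Psmb1 0.0209 ± 0.0182 (SD, n = 5 each), with 0.013 for Psmb1 without replicate 4. The other catalytic gene did not share this evenness. Psmb7 gave -0.00837, 0.00511, -0.00409, 0.0208 and 0.0076, a mean of 0.00421 ± 0.0113 (SD, n = 5; limma adjusted p = 0.738), with 2 arrays below 0 and 3 above. Values on each array for Psmb2, and for Psmc5 and the members of the lid shown further on, were chosen for display after they had been seen.

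The inducible beta subunits replace the catalytic ones in the immunoproteasome, which cuts peptides for display on MHC class I. None of the 3 had the same sign on all 5 arrays, and their median was 0.0223, beside 0.0434 for the 6 constitutive probes. Psmb8, which takes the place of Psmb5, gave 0.0548, 0.0127, 0.0686, 0.0635 and -0.00544, a mean of 0.0388 ± 0.0331 (SD, n = 5; limma adjusted p = 0.175). Psmb9 gave -0.0124, 0.065, -0.00512, -0.00197 and 0.0661, a mean of 0.0223 ± 0.0396 (SD, n = 5; limma adjusted p = 0.432). Psmb9 was positive on replicates 2 and 5 and negative on the other arrays, and its SD was larger than its mean, which was 0.0116 without replicate 2 and 0.0114 without replicate 5. Psmb10, which takes the place of Psmb7, gave 0.00287, 0.0177, -0.0157, -0.0645 and -0.043, a mean of -0.0205 ± 0.0335 (SD, n = 5; limma adjusted p = 0.406). It was the 1 beta subunit with a negative mean, and replicate 4, the highest array for Psmb4 and Psmb5, was its lowest, without which the mean was -0.00954.

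Psmb11, the beta subunit of cortical thymic epithelium, gave 0.0217, 0.00553, -0.00289, -0.0129 and 0.245 on replicates 1 to 5, a mean of 0.0512 ± 0.109 (SD, n = 5; limma adjusted p = 0.483). Replicate 5 alone lay far from 0, the mean without it was 0.00286, and the SD was the largest of the class.

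The ATPases, which form the ring that unfolds substrates, leaned to negative ratios. Of 8 probes, 6 had a negative mean, beside 46.8% of all probes, 1 a positive mean and 1 was listed at exactly 0 on every array. Without Psmc3ip, which is no subunit, 5 of 7 had a negative mean. The median was -0.0112, or -0.00993 without Psmc3ip. The lowest unadjusted p belonged to Psmc5, with -0.0449, 0.000218, -0.0402, -0.0331 and -0.0308, a mean of -0.0298 ± 0.0177 (SD, n = 5; limma adjusted p = 0.132). On 4 arrays Psmc5 lay in a narrow range below 0, and on replicate 2 it was barely above 0. Psmc4 averaged -0.0125 ± 0.0151, Psmc1 -0.00993 ± 0.0335 and Psmc3 -0.000322 ± 0.012 (SD, n = 5 each). Neither Psmc1 nor Psmc3 had a settled sign, with a Psmc1 mean of 0.00178 without replicate 1 and a Psmc3 mean of 0.000153 after scaling.

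Psmc6 (feature 8589) was listed at exactly 0 on all 5 arrays, as were 1.97% of all probes, so this probe gives no departure to describe. The other member with an exact 0 was Psmd11, on replicate 5. These 2 of 49 probes (4.08%) stand beside 25.7% of all probes with an exact 0 on at least 1 array.

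Psmc2 was read by a pair of probes whose means differed in sign. Feature 1332 gave 0.0175, 0.0296, -0.00855, 0.0296 and -0.0198, a mean of 0.00967 ± 0.0227 (SD, n = 5; limma adjusted p = 0.579), the largest positive mean of the ATPase class. Feature 15985 gave -0.0241, -0.122, 0.0125, -0.0133 and -0.0283, a mean of -0.035 ± 0.0511 (SD, n = 5; limma adjusted p = 0.337). Only on replicate 5 did the probes have the same sign, and on replicate 2 they lay farthest apart; without that array the mean of feature 15985 was -0.0133. Psmc3ip, the recombination factor, gave -0.00377, -0.267, -0.045, -0.00506 and -0.0127, a mean of -0.0667 ± 0.113 (SD, n = 5; limma adjusted p = 0.385). It was negative on every array, and without replicate 2 its mean was -0.0166.

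The non-ATPase subunits split evenly by sign, 7 positive and 7 negative, with a median of -0.000142 that was 0.00387 without replicate 1, 0.000249 without replicate 2 and 0.00163 without replicate 5. Grouped by their place in the particle, a grouping made with the values known, the 3 that sit in the base were all negative. Psmd1, a scaffold of the base, gave -0.0521, -0.114, -0.028, -0.083 and -0.0335, a mean of -0.0622 ± 0.0362 (SD, n = 5; limma adjusted p = 0.0932). All 5 arrays were below 0, with replicate 2 the lowest. Psmd4, a receptor for ubiquitin chains, averaged -0.0194 ± 0.0149 (SD, n = 5) and was also negative on all 5 arrays. Psmd2, a docking subunit for ubiquitin carriers, averaged -0.0144 ± 0.028 and was negative on 4. With the ATPases, the base had 8 negative means, 1 positive and 1 at 0 among 10 probes, beside 46.8% of all probes with a negative mean. The 8 include Psmc1 and Psmc3, whose signs were not settled, and feature 15985 of Psmc2, whose feature 1332 was the positive one. In limma 2 of the 10 had an unadjusted p under 0.05, both negative, beside 13.8% of all probes with a negative ratio at that level.

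The lid subunits included members with an even sign in each direction. Psmd7, the partner of the deubiquitinase, gave 0.0488, 0.0639, 0.0218, 0.101 and 0.0506, a mean of 0.0572 ± 0.0288 (SD, n = 5; limma adjusted p = 0.0788). Psmd3 gave 0.0297, 0.0172, 0.0399, 0.0413 and 0.0371, a mean of 0.033 ± 0.00992 (SD, n = 5; limma adjusted p = 0.0761). Both were positive on every array. Psmd6 gave -0.0318, -0.0469, -0.0341, -0.0244 and -0.0521, a mean of -0.0378 ± 0.0114 (SD, n = 5; limma adjusted p = 0.0671). Psmd6 was negative on every array, while Psmd7 and Psmd3 lay above 0. The sizes of these 3 means were 1.08-fold to 1.14-fold under the log10 reading and 1.02-fold to 1.04-fold under the log2 reading. Psmd12 was positive on every array as well, at 0.0163 ± 0.0199, or 0.00756 without replicate 5. Psmd14, the deubiquitinase of the lid, averaged 0.00722 ± 0.0282 (-0.000201 with array weights), Psmd8 -0.0075 ± 0.0127 and Psmd13 -0.0171 ± 0.023 (SD, n = 5 each), the last -0.00837 without replicate 5.

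Psmd11, another lid gene, had the largest mean and the largest spread of all members. It gave 0.0313, 0.433, 0.561, -0.082 and 0 on replicates 1 to 5, a mean of 0.189 ± 0.288 (SD, n = 5; limma adjusted p = 0.338). Replicates 2 and 3 were far above 0 and the other 3 arrays were not, and leaving out single arrays moved the mean between 0.0956 and 0.256. Its SD was at the 98.0th percentile of all probes. The median of the probe means was 0.0118 over 8 lid probes, beside -0.0135 for the base. With medians taken on each array instead, the lid was the higher on 5 of 5 arrays, by 0.0184 ± 0.00693 (SD, n = 5 arrays). No test was made of this difference, since the members were chosen with results known.

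**Figure D2:**
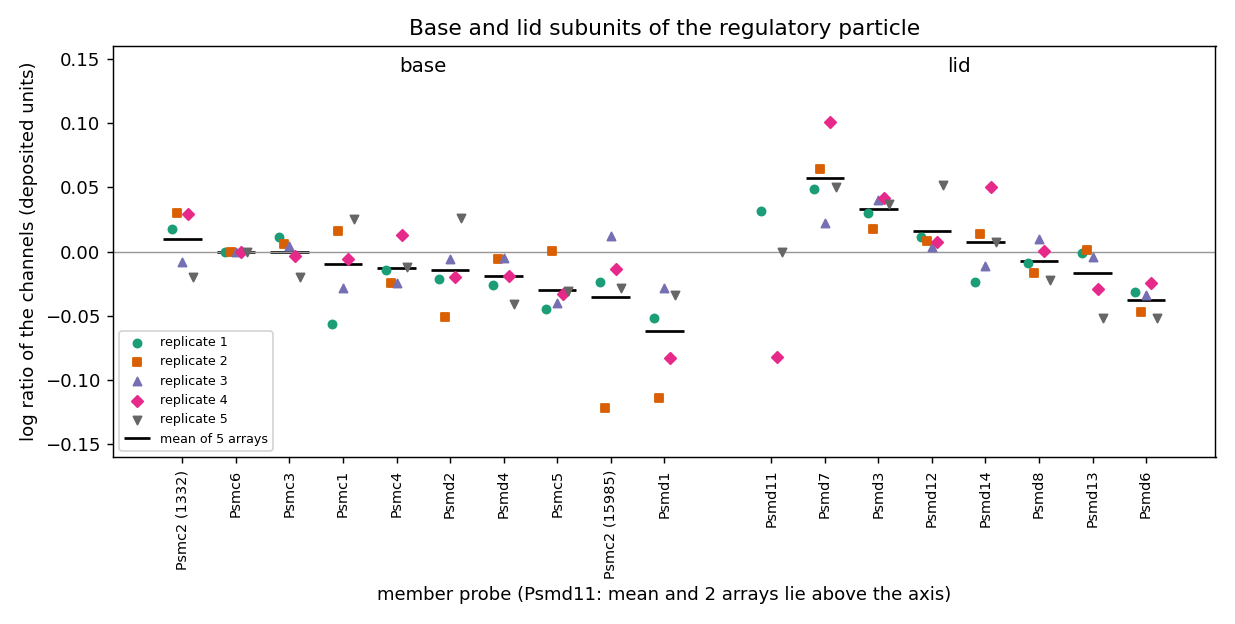
Log ratio (deposited units, vertical axis) of base and lid probes (horizontal axis) on the 5 arrays, with a bar at the mean; the mean of Psmd11 and 2 of its arrays lie above the axis, which ends at 0.16. In the base, 8 of 10 means are below 0, among them those of Psmc1 and Psmc3, whose signs were not settled. In the lid, Psmd7 and Psmd3 lie above 0 and Psmd6 below 0 on every array.

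Psmd5, Psmd9 and Psmd10 are chaperones that help the base assemble and are not part of the finished particle. None had the same sign on all 5 arrays. Psmd5 averaged 0.0397 ± 0.0591, Psmd9 0.0113 ± 0.034 and Psmd10 -0.0114 ± 0.0214 (SD, n = 5 each). For Psmd5 replicates 2 and 4 were below 0 and the other arrays above it, and without replicate 1 its mean was 0.0218.

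Activators open the gate of the core without ATP. Psme1, a subunit of the interferon-inducible activator, gave 0.000193, -0.0021, 0.00888, 0.0572 and 0.0176, a mean of 0.0164 ± 0.0241 (SD, n = 5; limma adjusted p = 0.395). Psme3, the nuclear activator, gave 0.0164, 0.0201, 0.0173, 0.0842 and 0.00966, a mean of 0.0295 ± 0.0308 (SD, n = 5; limma adjusted p = 0.241). Replicate 4 was the highest array for both, and without it the means were 0.00615 for Psme1 and 0.0159 for Psme3, which was positive on every array.

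Psme4, which encodes a large activator that acts without other subunits, was read by 2 probes of very unequal precision. Feature 6812 gave -0.0264, -0.0241, -0.0283, -0.0302 and -0.0379, a mean of -0.0294 ± 0.00529 (SD, n = 5; limma adjusted p = 0.0762), the smallest SD of any member above 0. Feature 3322 gave 0.144, -0.117, -0.0696, 0.178 and -0.192, a mean of -0.0114 ± 0.164 (SD, n = 5; limma adjusted p = 0.935). The first probe was negative on every array, and the second changed sign between arrays, with a mean of 0.00463 after quantile normalization. A single gene thus gave a spread at the 2.3rd percentile of all probes with one probe and at the 88.0th with the other.

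**Figure D3:**
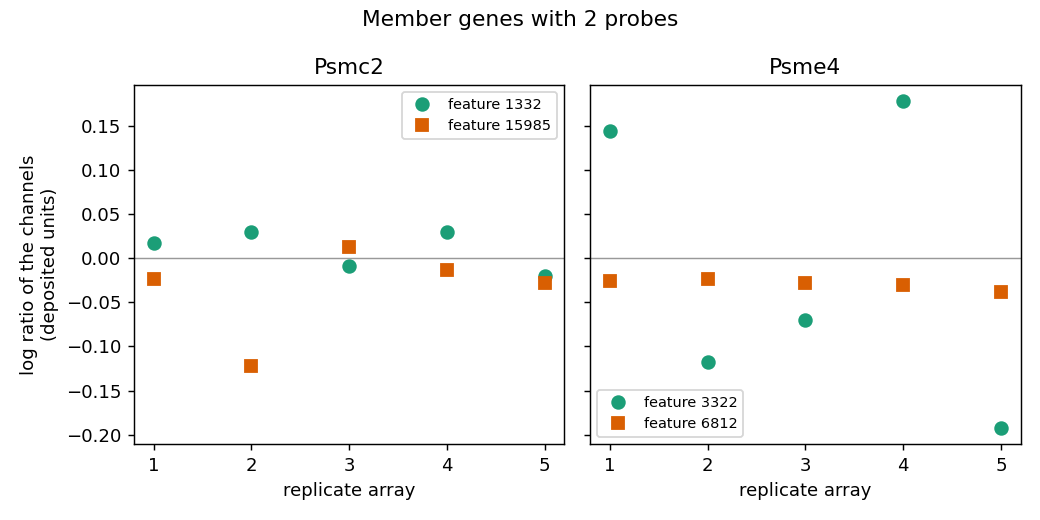
Log ratio (deposited units, vertical axis) on each replicate array (horizontal axis) for the 2 probes of Psmc2 (left) and of Psme4 (right). For Psme4, feature 6812 stays between -0.0379 and -0.0241 while feature 3322 runs from -0.192 to 0.178.

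Psmf1 encodes an inhibitor of the core in vitro. It gave 0.131, 0.424, 0.142, -0.0614 and -0.114, a mean of 0.104 ± 0.212 (SD, n = 5; limma adjusted p = 0.46), with replicates 1 to 3 above 0 and replicates 4 and 5 below. Without replicate 2 the mean was 0.0244, and without replicate 5 it was 0.159. Psme3ip1 averaged 0.0541 ± 0.161 (SD, n = 5), and without replicate 2 its mean was -0.00422. Psmg1, Psmg2 and Psmg3 encode chaperones that assemble the alpha ring. Psmg1 averaged 0.0361 ± 0.0197 and Psmg3 0.0456 ± 0.0321 (SD, n = 5 each), and both were positive on all 5 arrays, while Psmg2, the partner of Psmg1, averaged 0.000635 ± 0.021 and was -0.00188 after quantile normalization.

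Classes also differed in how their medians lay on each array. The core beta median was 0.0248, 0.0236, 0.0245, 0.0558 and 0.0251 on replicates 1 to 5, positive on each, while the median of all probes was 0 on each. The ATPase median was -0.00914, 0.000109, -0.0165, -0.00414 and -0.0161, and the beta median was higher than it on 5 of 5 arrays, by 0.0399 ± 0.0133 (SD, n = 5 arrays). On 5 of 5 arrays the beta median was also above the alpha median, by 0.0195 ± 0.0124, and the non-ATPase median, by 0.035 ± 0.0176. No test was made of these differences, since the members were chosen with results known. The alpha median was -0.00878, 0.0192, 0.000493, 0.047 and -0.00144, above 0 mainly on replicates 2 and 4, and the median of the alpha means was 0.0192 without replicate 1 and 0.00113 without replicate 4. The activator or assembly median was 0.0164, 0.0201, 0.00888, 0.0572 and -0.0105, and the median of its means was 0.0159 without replicate 4. Replicate 4 thus gave the highest median of the alpha, beta and activator or assembly classes, but not of the ATPases or non-ATPases. On that array 31 of 49 members were positive, beside 44.6% of all probes, and on replicate 2 also 31, beside 48.2%.

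**Figure D4:**
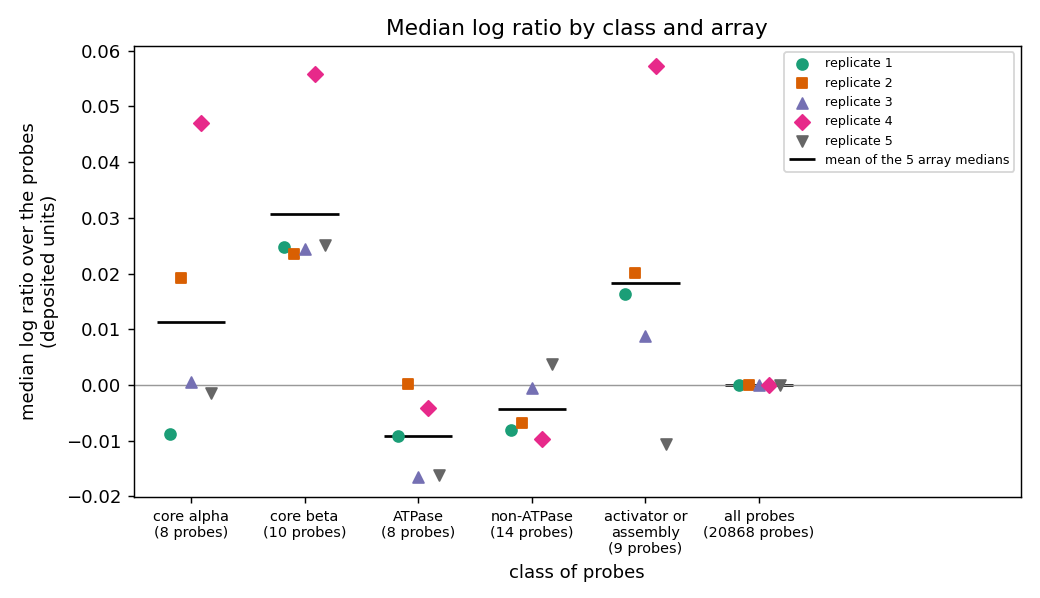
Median log ratio (deposited units, vertical axis) over the probes of each class and over all probes (horizontal axis) on each of the 5 arrays, with a bar at the mean of the 5 array medians. The core beta medians lie between 0.0236 and 0.0558, all above the medians of all probes at 0, and replicate 4 is the highest in the alpha, beta and activator or assembly classes.

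Proteasome probes varied less between arrays than the median probe did. The median SD over the arrays was 0.0241 for the members, beside 0.0588 for all probes, and 39 of 49 members (79.6%) had an SD below that of the median probe. A small spread was not particular to the proteasome. The median SD was 0.0238 for 6 fibroblast marker genes (Col1a1, Col1a2, Col3a1, Fn1, Sparc and Vim), with 0 probes at an exact 0. It was 0.0464 for the 28 other genes of the pathway described further on. The 39 include Psmc6, which was listed at exactly 0 on every array, as were 1.97% of all probes. By class the median SD was 0.0282 for alpha, 0.0217 for beta, 0.0202 for ATPase, 0.0255 for non-ATPase and 0.0308 for activator or assembly probes. Without replicate 4 the median SD was lower for alpha (0.0172), beta (0.0139), non-ATPase (0.0199) and activator or assembly probes (0.0166), and higher for ATPases (0.0215). Under the log10 reading 8 of 49 members (16.3%) lay beyond 1.5-fold on at least 1 array, beside 36.3% of all probes. These were Psma7, Psma8, Psmb11, Psmc3ip, Psmd11, Psme3ip1, Psme4 (feature 3322) and Psmf1, and the next member was Psma2, at 0.157 on replicate 2. Brightness is not in the deposited values, and its part in the smaller spread was not tested.

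The smallest mean ratio detectable from 5 arrays follows from the SD of the probe, here for a two-sided test of the mean with a power of 0.8 and an alpha of 0.05 before adjustment. Under the log10 reading its median was 1.1-fold for the 48 members with an SD above 0, beside 1.26-fold for all such probes, and under the log2 reading it was 1.03-fold beside 1.07-fold. A 1.5-fold ratio was within reach, if log10, for 40 of these 48 members (83.3%), beside 71.5% of all probes with an SD above 0. Those out of reach were the same 8 probes that lay beyond 1.5-fold on at least 1 array, which include the testis and thymus subunits and both genes that are no subunits. Both sets come from the same 5 values of each probe, so their match is no separate result. The smallest value was 1.02-fold for Psme4 (feature 6812) and the largest 3.05-fold for Psmd11. These values rest on the spread between arrays alone and take no account of a probe's steady departure from 0. For Psme4 (feature 6812) the mean itself was 1.07-fold from equality if log10, with A23 RNA in both channels.

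**Figure D5:**
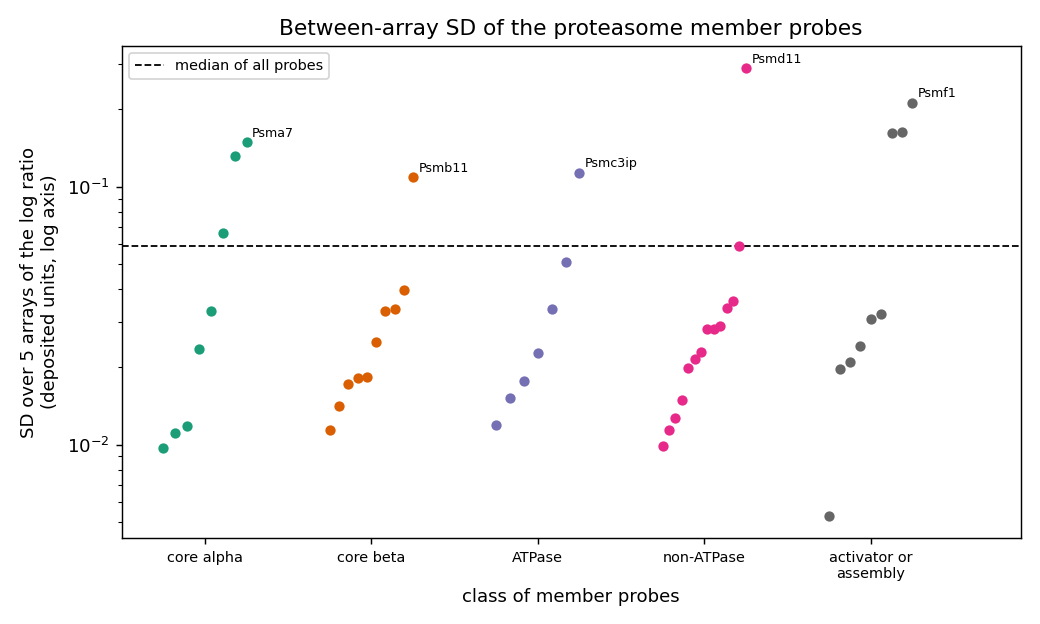
SD over the 5 arrays of the log ratio (deposited units, log axis) for each member probe, by class (horizontal axis), with a dashed line at the median of all probes, 0.0588. Psmc6, with an SD of 0, is not drawn; Psmd11 has the largest SD, 0.288.

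Probes can also be split by the kind of record they were annotated to, a feature that the name rule did not use, and no test was made of this split. The 41 members annotated to a RefSeq messenger RNA (NM accession) had a median SD of 0.0234, and the 8 annotated to another cDNA record had 0.0822. Over all probes with 1 symbol the values were 0.055 and 0.069, a smaller gap in the same direction. The kind of record did not sort the members cleanly. Of the 8 probes of the second kind, Psmd11, Psma8, Psmc3ip and Psme4 (feature 3322) were among the widest members, while the other 4, Psmc6, Psma4, Psmc2 (feature 15985) and Psme4 (feature 6812), had an SD below the median of all probes. Psmc6 counts here only because it was listed at exactly 0 on every array. Psma7, Psmb11, Psme3ip1 and Psmf1, also among the widest, were annotated to NM records. Of the 47 member symbols, 45 are also symbols in the hamster gene table of the CriGri-PICRH-1.0 assembly, and Psmd1 and Psmd3 were not matched.

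Other genes of the pathway, in lists of 47 symbols that include older synonyms, were measured for 28 genes, and 0 of them passed an adjusted p of 0.05 in limma, beside 2.45% of all genes, with 7 at an unadjusted p under 0.05, beside 27.7% of all genes. Their means were positive for 19 genes, beside 52.2% of all genes, and negative for 9, beside 46.2%. Of 7 proteasome-associated or assembly genes, Ecpas, a scaffold that ties the regulatory particle to the core, came closest, at -0.0715 ± 0.0237 (SD, n = 5; limma adjusted p = 0.0504), negative on all 5 arrays. In the same list Uchl5, a proteasome-bound deubiquitinase, was -0.038 ± 0.025, the lid subunit gene Sem1 0.0421 ± 0.0475 and Ube3c 0.0757 ± 0.1 (SD, n = 5 each). Among 6 regulators of proteasome gene transcription, Nfe2l1, the factor that restores proteasome genes after inhibition, averaged 0.0534 ± 0.136, Mafk 0.0429 ± 0.0238 and Maff -0.0377 ± 0.0489. Of ubiquitin and activating enzyme genes only Uba6 was measured, at 0.0134 ± 0.0391. This is the average of 2 probes, 1 of which had an exact 0 on at least 1 array. Among 8 shuttle and unfoldase genes, Ubqln2 averaged 0.0413 ± 0.0867, the unfoldase gene Vcp 0.0377 ± 0.0281, Ubqln4 -0.0192 ± 0.0755 and Faf1 -0.0185 ± 0.0207. Of 6 antigen processing partners of the inducible core, the transcription factor gene Irf1 was positive on all 5 arrays at 0.065 ± 0.0221 (SD, n = 5; limma adjusted p = 0.0521), and Erap1, a peptidase that trims the peptides, was negative on all 5 at -0.0584 ± 0.0294 (limma adjusted p = 0.0789). B2m, the light chain of MHC class I, was listed at 0 on 3 arrays, at -0.0787 on replicate 1 and at 0.431 on replicate 4, and Tapbp averaged -0.0424 ± 0.0986.

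Over the whole table, replicate 2 was the widest array, with an SD over all probes of 0.174, beside 0.119 to 0.127 on the other arrays, and 10.2% of the members lay beyond 1.5-fold on it if log10, beside 19.3% of all probes. Ratios of 1 RNA against itself hold no level, so the fibroblast label could not be checked against marker genes. Between pairs of arrays, Pearson correlations over the 49 members ran from -0.273 to 0.602, beside 0.268 to 0.424 over all probes, and rank correlations from 0.183 to 0.67, beside 0.255 to 0.436. These describe probes, which share arrays and dyes and are not replicates.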

How the data were processed

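The authors deposited 1 log ratio per probe and array, taken here as log10. The base and the channel in the numerator are not stated, so only the deposited sign is used, folds are given under log10 and log2 readings, and 20 µg of total RNA was labelled directly per the labels' protocols. Values ran from -1.72 to 1.35 with a median of 0 on every array; of image quantification, background and dye correction nothing is stated in the sources used here. The labels do not say whether arrays came from separate cultures, so p-values cover the array-to-array spread alone, which may be technical, and no slide or date could be tested. The number of arrays, 5, limits the precision. The table has 0 columns of other samples, and no 2 arrays were copies (at least 18948 probes differed).

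Gene names come from the platform's annotation table of mouse genes: 17786 probes had 1 symbol, 16 several and 3066 none. Log ratios were fitted in limma (version 3.58.1, R 4.3.3) by an intercept-only model, each mean against 0. P-values were adjusted over all 20868 probes (or 16504 genes, probes averaged first), at a threshold of 0.05. The fit was tested on simulated data in which only a small set of shifted probes departed steadily from 0. That test does not cover the steady departures found in these arrays. Named were, per class, the largest mean of each sign and the largest SD, members at exactly 0 or with probes of opposite sign, and the inducible, activator and tissue-restricted members; pathway lists gave up to 2 genes of each sign. Alternatives were array scaling, quantile normalization, array weights, robust moderation, zeros as missing, a minimum of 1.2-fold, members left out and arrays left out. The members and lists were chosen with earlier results of these data known.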

Additional observations from a re-analysis of the deposited data

Results flagged for a closer look

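In 7 of 48 member probes with any spread (14.6%), 1 array stood apart from the other 4 by Dixon's ratio, beside 14.2% of all probes; chance flags about 5% of groups. Replicate 4 stood apart for Psmb1 at 0.0525, where the other arrays gave 0.00887 to 0.0206, for Psmb4 at 0.0998 against 0.0404 to 0.052, for Psme3 at 0.0842 against 0.00966 to 0.0201 and for Psmg2 at 0.0372 against -0.0132 to -0.00344. The median of the core beta class stood apart on the same array, at 0.0558 against 0.0236 to 0.0251. Replicate 5 stood apart for Psmb11 at 0.245 against -0.0129 to 0.0217 and for Psmd12 at 0.0515 against 0.00343 to 0.0112. Replicate 2 stood apart for Psmc3ip at -0.267 against -0.045 to -0.00377.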

How the results depend on the processing

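No member probe or gene passed in limma with any array left out (0 to 0), with quantile normalization, robust moderation, zeros set to missing or a minimum of 1.2-fold under either base. Array scaling gave 1 probe and 0 genes, and array weights gave 5 probes and 4 genes; the cause was not tested. Adjusted p-values in limma were 0.0492 for Psmb5 after scaling, and with weights 0.0321 for Psmb2, 0.0483 for Psmb3, 0.0439 for Psmb5, 0.0465 for Psmd3 and 0.0464 for Psmd6. The median ratios kept their sign under all alternatives run, except for the non-ATPase class (-0.00646 to 0.00387 with single arrays left out). Median SDs with single arrays left out ran from 0.0176 to 0.0269 for all members, 0.0172 to 0.0324 for alpha, 0.0139 to 0.025 for beta, 0.0199 to 0.025 for non-ATPase and 0.0166 to 0.0347 for activator or assembly probes, and 1 to 2 members had an exact 0. In 8 members with means near 0 or wide spreads the sign turned. With single arrays left out the means ran from -0.0119 to 0.00962 for Psma1, -0.0478 to 0.0404 for Psma7, -0.0188 to 0.00178 for Psmc1, -0.00324 to 0.00449 for Psmc3, -0.00352 to 0.015 for Psmd14, -0.00422 to 0.104 for Psme3ip1, -0.0587 to 0.0339 for Psme4 (feature 3322) and -0.00851 to 0.00409 for Psmg2. Scaling gave -0.00252 for Psma1, 0.000153 for Psmc3 and -0.000629 for Psmg2. Quantile normalization gave -0.00276 for Psma1, 0.00463 for Psme4 (feature 3322) and -0.00188 for Psmg2. Array weights gave -0.0018 for Psma1, 0.00251 for Psmc3, -0.000201 for Psmd14, -0.0036 for Psme3ip1, 0.000802 for Psme4 (feature 3322) and -0.00061 for Psmg2. No paired analysis was possible because all arrays form 1 group. Signal over background is unknown, so what brightness limits could not be judged.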
